A study of Mus musculus with 10 samples.

Results

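Autophagy transcripts were followed in mouse hepatocytes, the main cells of the liver parenchyma, over 4 times of day and along the liver lobule. The set held 10 of the 14812 gene entries measured, taken by name as autophagy genes, with earlier results of these data known: Ulk1, Becn1, Wipi1, Map1lc3a, Map1lc3b, Gabarapl1, Gabarapl2, Sqstm1, Bnip3 and Tfeb (rows ulk1, becn1, wipi1, map1lc3a, map1lc3b, gabarapl1, gabarapl2, sqstm1, bnip3 and tfeb, as the files spell them). All 10 had a row in every library and passed the filter on low values. The labels describe male C57BL/6 mice aged 3 months with free access to regular chow, anesthetized with ketamine-HCl and a second agent that the labels spell Xylszine-Hcl. Cells were freed by collagenase perfusion and purified on a Percoll gradient, and the 10x Chromium 3′ kit, version 2, was used. No group carried a genotype or treatment of its own. The groups differed in Zeitgeber time (ZT, hours in the light-dark cycle) and some also in the index column of their libraries. There were 3 libraries at ZT0 (A, B and C), 2 at ZT6 (A and B), 3 at ZT12 (A, B and C) and 2 at ZT18 (A and B). How many mice gave a library is not stated, so p-values measure the spread between libraries.

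Macroautophagy encloses part of the cytoplasm in a double membrane and delivers it to the lysosome, and in the liver it is known for supplying amino acids, lipids and glucose during fasting. A kinase complex containing Ulk1 starts the process, a lipid kinase complex containing Becn1 marks the membrane with a phosphoinositide that Wipi1 binds, and small ubiquitin-like proteins of the LC3 and GABARAP family are then joined to membrane lipid. Receptors such as Sqstm1 and Bnip3 link cargo to those proteins, and Tfeb is a transcription factor of lysosomal and autophagy genes.

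Libraries held 710 to 2860 cells and 1454623 to 7144803 UMIs (unique molecular identifiers, counts of tagged molecules), 18378 cells in all. Levels are given as CPM, UMIs of a gene per 1000000 UMIs of its library. All 8 hepatocyte markers were detected, with summed levels of 42420 to 79726 CPM, while endothelial markers reached at most 16.2 CPM (Clec4g at 0), stellate markers 11.6 CPM, macrophage markers 6.46 CPM (Clec4f and Csf1r at 0) and lymphocyte markers 0.609 CPM (4 of 6 at 0). Neutrophil markers summed to 0.687 to 7.70 CPM at ZT12 and at most 1.57 CPM at the other times. Cholangiocyte markers summed to 28.5 to 69.3 CPM at ZT0 and 31.9 to 37.9 CPM at ZT6. At ZT12 they summed to 22.6 to 31.6 CPM and at ZT18 to 33.7 to 47.2 CPM. Sox9 among them averaged 22.4, 2.42, 4.04 and 14.3 CPM at ZT0, ZT6, ZT12 and ZT18. The 5 erythroid genes measured 99.0 to 361 CPM at ZT18 and 72.2 to 108 CPM at the other times, and Alas2 among them averaged 78.8 to 85.2 CPM at every time, so the rest was haemoglobin transcripts. ZT12A, the smallest library, had the lowest hepatocyte marker sum and the highest share of mitochondrial UMIs, at 24.4% against 12.9% to 21.6% elsewhere. The 5 clock genes used to check the time labels were all rhythmic, and 12 of 12 zonated genes not used to order the cells differed in the listed direction.

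Time of day was examined first, by fitting a 24-h wave to the libraries. Transcripts of the kinase Ulk1 and of the mitochondrial receptor Bnip3 changed over the day, with fitted peaks at ZT 7.91 and ZT 12.48. Gabarapl1 had the second largest amplitude of the 10 but did not pass the test. The other 7 genes varied less, with amplitudes of at most 0.23 on the log2 scale (amplitude is the distance from the mean to the peak). In counts, 2 of 10 genes were called rhythmic by edgeR's quasi-likelihood test (Benjamini-Hochberg adjusted), where 5.14% of the 8908 genes tested were. The median amplitude was 0.19 for the 10 genes and 0.25 for all genes tested (log2). The test of any difference among the 4 times called the same 2 genes, where 6.58% of all genes were called.

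**Figure D1:**
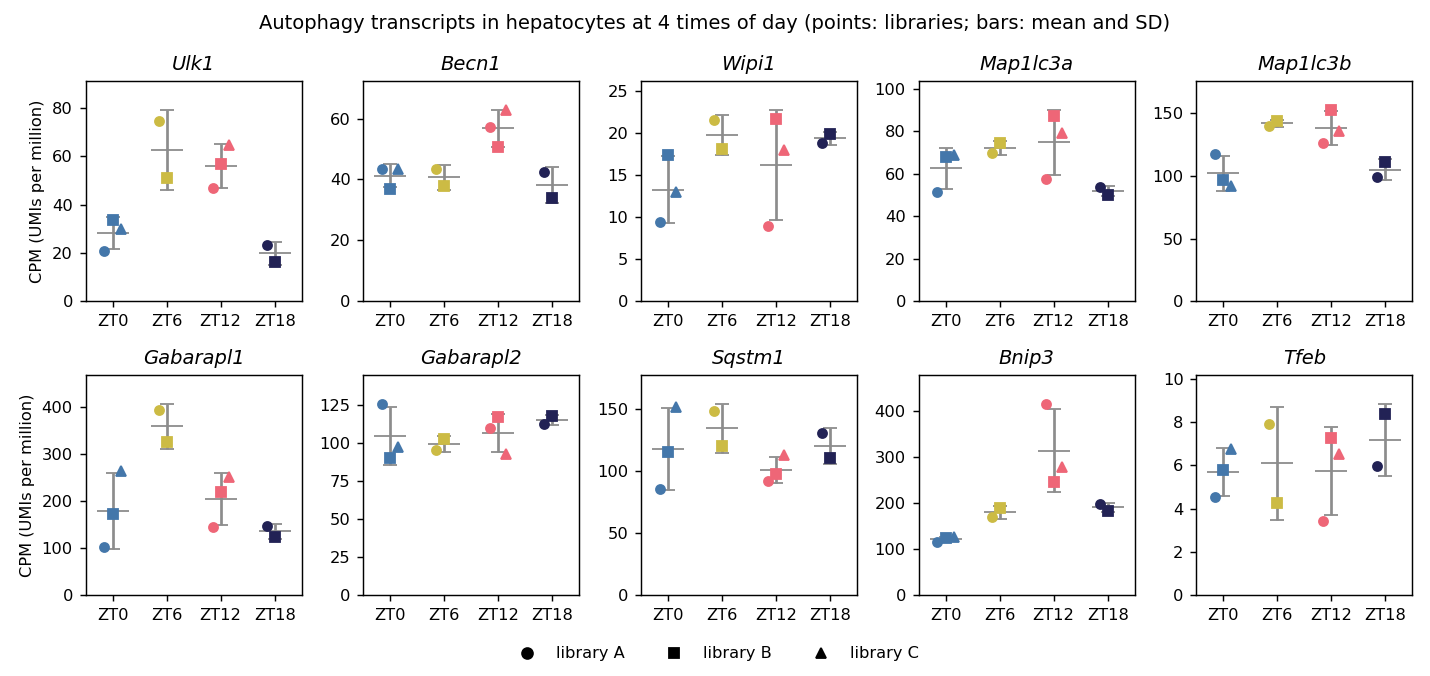
Level in CPM (vertical axis, linear, from 0) of each of the 10 genes in each library at ZT0, ZT6, ZT12 and ZT18 (horizontal axis). Points are libraries with the marker showing the letter, and grey bars are the mean and SD of a time (n = 3, 2, 3 and 2). All 5 Ulk1 values at ZT6 and ZT12 lie above all 5 at ZT0 and ZT18, and the 3 Bnip3 values at ZT12 lie above the other 7.

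Ulk1, which phosphorylates several early autophagy factors, measured 20.9, 33.7 and 29.7 CPM in the ZT0 libraries, 74.4 and 51.0 at ZT6, 46.7, 56.7 and 64.8 at ZT12, and 23.3 and 16.4 at ZT18. It was high at ZT6 and ZT12 and low at ZT0 and ZT18, and these pairs of times did not overlap. ZT6 and ZT12 did overlap, as did ZT0 and ZT18. The amplitude was 0.89 (log2), a peak-to-trough fold of 3.46 (edgeR adjusted p = 0.0043). Ulk1 was higher at ZT12 than at ZT0 by a log2 fold change of 0.86 ± 0.21 (SE; edgeR adjusted p = 0.0411), a 1.81-fold difference, with the ZT12 library above the ZT0 library for each of the 3 letters. From ZT6 to ZT18 it fell by 1.59 ± 0.27 (log2; edgeR adjusted p = 0.0070), a 3.01-fold difference. The rhythm remained called without any 1 library and without both ZT18 libraries (edgeR adjusted p = 0.0498). The contrasts were less firm, as the ZT12 to ZT0 call was lost without ZT0A, ZT0C, ZT6A, ZT6B, ZT12B, ZT12C, ZT18A or ZT18B (edgeR adjusted p from 0.0575 to 0.120), and the ZT18 to ZT6 call without ZT6A or ZT18B (edgeR adjusted p = 0.110 and 0.132).

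Becn1, the scaffold of the lipid kinase complex, ranged from 34.0 to 62.8 CPM. It measured 57.1, 50.7 and 62.8 CPM at ZT12, above the 7 libraries of the other times, which lay between 34.0 and 43.6 CPM. That separation did not pass the test: ZT12 exceeded ZT0 by 0.31 ± 0.18 (log2, SE; edgeR adjusted p = 0.433), and the rhythm had an amplitude of 0.15 (edgeR adjusted p = 0.598). Wipi1, which binds the phosphoinositide made by that complex, measured 8.94 to 21.7 CPM, and both ends of this range were ZT12 libraries. It had an amplitude of 0.13 (edgeR adjusted p = 0.868).

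Among the LC3 and GABARAP family proteins, which coat the growing membrane, Gabarapl1 transcripts varied most. Its levels were 102, 173 and 263 CPM at ZT0, 392 and 325 at ZT6, 144, 219 and 249 at ZT12, and 146 and 124 at ZT18. Both ZT6 libraries were above all 8 others, and ZT0, ZT12 and ZT18 overlapped. From ZT6 to ZT18 Gabarapl1 fell by 1.33 ± 0.34 (log2, SE; edgeR adjusted p = 0.0441), a 2.52-fold difference. Its fitted wave peaked at ZT 6.20, with an amplitude of 0.67 (log2; edgeR adjusted p = 0.0697). With the letter of the library as a replicate block the wave passed the test (edgeR adjusted p = 0.0406), as it did with DESeq2 (adjusted p = 0.0133). It also passed with the index column as a block (edgeR adjusted p = 0.0372) and without ZT0A or ZT0C (edgeR adjusted p = 0.0263 and 0.0446). The ZT18 libraries are the only ones of their index column, so that block also takes up their level. Without both ZT18 libraries the wave did not pass (edgeR adjusted p = 0.220). The ZT18 to ZT6 call was lost without ZT0B, ZT6A, ZT6B, ZT12C, ZT18A or ZT18B (edgeR adjusted p from 0.0510 to 0.320).

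Between ZT12 and ZT0 Gabarapl1 differed by 0.07 ± 0.27 (log2, SE; edgeR adjusted p = 0.940), and the 3 ZT0 libraries themselves spanned 102 to 263 CPM. Within each of these times, library A was lowest and library C highest. The libraries of 1 letter share an index column at ZT0 and ZT12, that is the number in their 10x sample index.

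The relatives of Gabarapl1 were flatter. Map1lc3b, the LC3 form most used as an autophagosome marker, measured 118, 96.8 and 91.8 CPM at ZT0, 140.2 and 144 at ZT6, 126, 153 and 136 at ZT12, and 99.0 and 111 at ZT18. All 5 libraries of ZT6 and ZT12 were above all 5 of ZT0 and ZT18, the order seen for Ulk1. The amplitude was only 0.23 on the log2 scale (edgeR adjusted p = 0.413). That order is on CPM, where library size alone moved the median of all genes by 0.14 (log2) for ZT12 against ZT0. Map1lc3a, another LC3 form, measured 51.5, 67.8 and 68.7 CPM at ZT0, 69.7 and 74.6 at ZT6, 57.7, 87.5 and 79.3 at ZT12, and 53.8 and 50.1 at ZT18, with overlap between times (amplitude 0.21; edgeR adjusted p = 0.532). Gabarapl2, also called GATE-16, had the smallest ratio of highest to lowest library of the 10 genes, from 90.2 to 126 CPM, and both of these libraries were from ZT0 (amplitude 0.16; edgeR adjusted p = 0.709).

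Shares within the family do not depend on how the libraries are scaled. Of all UMIs of Map1lc3a, Map1lc3b, Gabarap, Gabarapl1 and Gabarapl2, Gabarapl1 took 15.4%, 24.2% and 32.8% at ZT0, 39.3% and 34.3% at ZT6, 20.5%, 24.9% and 29.8% at ZT12, and 23.6% and 19.9% at ZT18. The ZT6 libraries held the 2 highest shares. Gabarapl2 took 9.54% and 10.8% at ZT6, its 2 lowest shares, and 18.1% and 18.9% at ZT18. Shares of 1 total are tied, so a rise in the share of Gabarapl1 lowers the others. The mean level of Gabarap, the fifth family member, was highest at ZT6, at 302 CPM. It was 277 CPM at ZT0, 282 CPM at ZT12 and 215 CPM at ZT18. As a share, Gabarap took 30.2% to 40.3% over all libraries and had its 2 lowest shares at ZT6 as well. The order was not clear of counting error in every pair: the exact 95% binomial interval of the Gabarapl1 share was 32.4% to 36.2% in ZT6B and 31.5% to 34.2% in ZT0C, and those of ZT6B and ZT12C overlapped for Gabarapl2 and for Gabarap. For ZT6A the Gabarapl1 interval was 37.9% to 40.7%, above the intervals of all other libraries. These intervals cover counting error only. UMIs tag the 3′ end of a molecule and were not divided by transcript length.

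**Figure D2:**
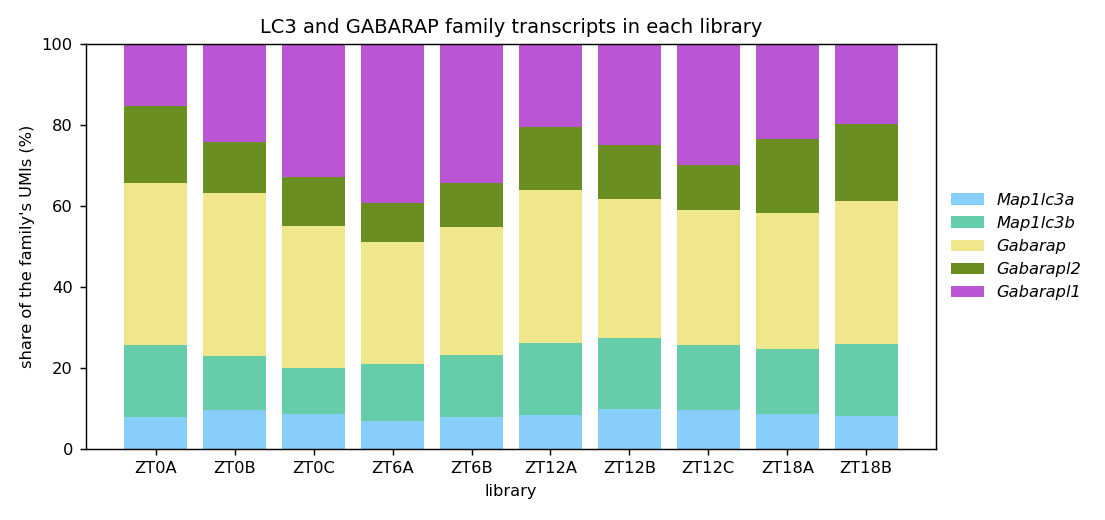
Share of the UMIs of the LC3 and GABARAP family taken by each of its 5 genes (stacked bars, percent, linear from 0 to 100) in each of the 10 libraries. The Gabarapl1 segment is widest in both ZT6 libraries, at 39.3% and 34.3%, and narrowest in ZT0A, at 15.4%.

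The cargo receptors differed from each other. Bnip3, an outer mitochondrial membrane protein that recruits the LC3 family to mitochondria, measured 116, 124 and 126 CPM at ZT0, 169.8 and 189 at ZT6, 416, 246 and 278 at ZT12, and 197 and 183 at ZT18. The ZT12 libraries were above all others, the ZT0 libraries below all others, and ZT6 and ZT18 overlapped between them. The amplitude was 0.62 (log2), a peak-to-trough fold of 2.35 (edgeR adjusted p = 0.0129), and ZT12 exceeded ZT0 by 1.22 ± 0.22 (log2, SE; edgeR adjusted p = 0.0066), a 2.33-fold difference. ZT18 and ZT6 differed by 0.16 ± 0.27 (log2, SE; edgeR adjusted p = 0.804). The highest value came from ZT12A, the library with the high mitochondrial share; without it ZT12 exceeded ZT0 by 0.94 and the rhythm remained called (edgeR adjusted p = 0.0233). The test of any difference among times lost Bnip3 without ZT6A, ZT18A or ZT18B (edgeR adjusted p from 0.0521 to 0.0578).

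Its close relative Bnip3l, another mitochondrial receptor, offered a comparison within each library. There were 1.17, 1.48 and 1.27 UMIs of Bnip3 per UMI of Bnip3l at ZT0, 1.35 and 1.58 at ZT6, 2.31, 1.86 and 1.71 at ZT12, and 1.67 and 1.73 at ZT18. All ZT12 ratios were above all ZT0 and ZT6 ratios, and they overlapped those of ZT18. Reads of Bnip3 could be shared with copies: 24.4% of the 50-base stretches in the last 500 bases of its coding transcripts also occur in 4 other annotated genes, none of which has a row in the files. The share was 16.8% for Map1lc3b and 0 for the other 8 genes, and how shared reads were counted is not given in the sources used here.

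Sqstm1, the ubiquitin-binding receptor p62, measured 85.9, 116 and 152 CPM at ZT0, 149 and 120.2 at ZT6, 92.1, 97.4 and 113 at ZT12, and 130.5 and 110.2 at ZT18. The ZT0 libraries covered the whole range of the other times (amplitude 0.18, log2; edgeR adjusted p = 0.570). Tfeb was the least abundant, with 5 to 52 UMIs per library and 3.44 to 8.35 CPM, with the lowest value in ZT12A and the highest in ZT18B (amplitude 0.14; edgeR adjusted p = 0.886). So few UMIs limit its precision, and the SE of its log2 fold change between ZT18 and ZT6 was 0.38.

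In the direct contrasts, 2 of the 10 genes (Ulk1 and Bnip3) were higher at ZT12 than at ZT0, where 1.74% of all genes were called higher, 1.7% lower and 3.44% in either direction. The median log2 fold change was 0.19 for the 10 genes and -0.000753 for all genes tested. Between ZT18 and ZT6, 2 of the 10 (Ulk1 and Gabarapl1) were lower at ZT18, where 1.45% of all genes were called lower, 2.35% higher and 3.79% in either direction. The medians were -0.05 and -0.01. With library size alone the median of all genes moved by 0.14 (log2) for ZT12 against ZT0 and 66.7% of called genes were higher against 50.7%, and Bnip3 and Ulk1 remained called higher there. ZT6 and ZT18 libraries come from different index columns, so column and time cannot be told apart in that contrast. Haemoglobin transcripts were high on average at ZT18. The erythroid sums of its 2 libraries were 99.0 and 361 CPM, against at most 108 CPM at the other times. The part of haemoglobin transcripts in the differences was not tested.

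The 3 genes called in a time contrast lie on different chromosomes of GRCm38: Ulk1 at chr5:110784488-110810097 on the minus strand, Gabarapl1 at chr6:129533160-129542346 on the plus strand and Bnip3 at chr7:138890836-138909519 on the minus strand (GENCODE M21, all protein-coding). Their upstream sequence is shown because they differ in peak time and in base composition. Each line gives bases -250 to -51 before the RefSeq start site, GRCm38.p6, 5′ to 3′ on the gene's strand, at chr5:110810132-110810331, chr6:129532942-129533141 and chr7:138909557-138909756, with capitals marking the only match to a searched motif.
Ulk1: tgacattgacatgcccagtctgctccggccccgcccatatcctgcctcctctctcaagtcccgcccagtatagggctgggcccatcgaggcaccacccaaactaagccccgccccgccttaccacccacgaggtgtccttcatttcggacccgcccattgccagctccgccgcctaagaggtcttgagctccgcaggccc
Gabarapl1: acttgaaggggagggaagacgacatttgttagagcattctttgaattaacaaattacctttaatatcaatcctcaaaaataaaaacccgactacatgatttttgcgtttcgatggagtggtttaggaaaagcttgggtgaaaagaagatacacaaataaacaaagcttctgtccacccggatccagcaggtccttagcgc
Bnip3: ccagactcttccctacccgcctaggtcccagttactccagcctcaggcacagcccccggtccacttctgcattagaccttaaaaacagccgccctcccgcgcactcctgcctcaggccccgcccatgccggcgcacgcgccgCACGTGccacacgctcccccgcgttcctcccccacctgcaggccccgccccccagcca

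The stretches held 64.5% G and C for Ulk1, 39.5% for Gabarapl1 and 70.0% for Bnip3. Promoters of 300 bases, reaching 50 bases past the start site, were found in RefSeq for 8 of the 10 genes. They were searched on both strands for CACGTG (the E-box bound by clock factors), TCACGTGA (an element bound by Tfeb), TTANGTAA (the D-box), TGTTTAC (a forkhead site) and ACGTG (the core of the hypoxia element, contained in the first 2). Bnip3 held CACGTG at -108 to -103, in capitals above, with ACGTG inside it on both strands. Gabarapl2 held ACGTG at -75 to -71. Ulk1, Wipi1, Map1lc3b, Gabarapl1, Sqstm1 and the 3 promoters listed for Tfeb held none of these letters. Of 32851 promoters of this length, 7.15% held CACGTG and 19.6% held ACGTG, and 0.974%, 2.32% and 3.65% held the Tfeb element, the D-box and the forkhead site.

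Position in the lobule was examined next. Blood enters the lobule at portal veins and leaves at a central vein, and hepatocytes along this axis differ in metabolism. Cells of each library were ordered by 16 landmark genes, none of them among the 10, and of 3 equal parts of the order both outer ones were compared as the periportal and pericentral zones. Transcripts of Wipi1, Map1lc3a, Gabarapl1 and Bnip3 were higher in the pericentral zone, and Ulk1 was higher in the periportal zone. In counts, 5 of 10 genes were called by edgeR's quasi-likelihood test (Benjamini-Hochberg adjusted), 4 pericentral and 1 periportal. Of the 8907 genes tested 24.6% were called, 12.7% higher in the pericentral and 11.9% higher in the periportal zone. The median log2 difference, periportal minus pericentral, was -0.19 for the 10 genes and -0.01 for all genes tested.

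Library by library, 5 of the 10 genes (Wipi1, Map1lc3a, Gabarapl1, Gabarapl2 and Bnip3) were higher in the pericentral zone in 10 of 10 libraries, where 12.1% of all genes had a difference of 1 sign in all 10. The pericentral level of Map1lc3a was 82.3 ± 15.4 CPM and its periportal level 56.0 ± 9.01 CPM (SD, n = 10 libraries of all times). Its log2 difference was -0.41 ± 0.07 (SE; edgeR adjusted p = 4.1e-05), and single libraries lay between -0.28 and -0.82 on the log2(CPM + 1) scale, which understates changes of low genes. Of the 5 called differences it was the only one to remain called when the library was not a term in the fit. The largest zone difference of the 10 was that of Wipi1, with 21.4 ± 8.10 CPM against 13.4 ± 4.65 (log2 difference -0.57 ± 0.14, SE; edgeR adjusted p = 0.0017). Its libraries spread from -0.05 to -1.50, and with cells of at least 2000 UMIs the difference was -0.30 and not called (edgeR adjusted p = 0.263). Wipi1 had only 13 UMIs in its lowest library. In ZT12A (10.9 against 8.77 CPM) and ZT12C (18.8 against 18.1 CPM) both outer zones held equal numbers of its UMIs. Its sign in these libraries therefore came from the depth of the zones.

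For Bnip3 the pericentral level was 237 ± 103 CPM and the periportal level 174 ± 82.2 CPM (SD, n = 10), where the spread includes the change with time. Its log2 difference was -0.37 ± 0.07 (SE; edgeR adjusted p = 4.7e-05). The libraries lay between -0.25 and -0.88. Gabarapl1 measured 246 ± 101 and 179 ± 78.4 CPM in the same zones (log2 difference -0.33 ± 0.07, SE; edgeR adjusted p = 2.9e-04), with ZT0A at -0.01 and the other 9 libraries between -0.32 and -0.83. These signs per library are on CPM, where library size alone moved the median of all genes by -0.10 (log2). The differences of Gabarapl1 and Gabarapl2 in ZT0A (-0.01 and -0.08) and of Wipi1 in ZT12C (-0.05) lay within that shift. Gabarapl2, at 119 ± 12.4 and 99.4 ± 15.6 CPM, had the same sign in all libraries but missed the threshold (log2 difference -0.18 ± 0.07, SE; edgeR adjusted p = 0.0538).

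Ulk1 went the other way, with a pericentral level of 34.5 ± 11.7 CPM and a periportal level of 45.0 ± 24.4 CPM (SD, n = 10; log2 difference 0.40 ± 0.12, SE; edgeR adjusted p = 0.0127). It was higher in the periportal zone in 7 of 10 libraries. The call was lost without ZT6A or ZT12B (edgeR adjusted p = 0.0739 and 0.0616), with DESeq2 (adjusted p = 0.0889) and with library size alone (edgeR adjusted p = 0.0665). Becn1, Map1lc3b, Sqstm1 and Tfeb were not called, with log2 differences of -0.04, -0.01, 0.09 and -0.21. Sqstm1 measured 114 ± 20.1 and 114 ± 24.3 CPM in the outer zones.

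**Figure D3:**
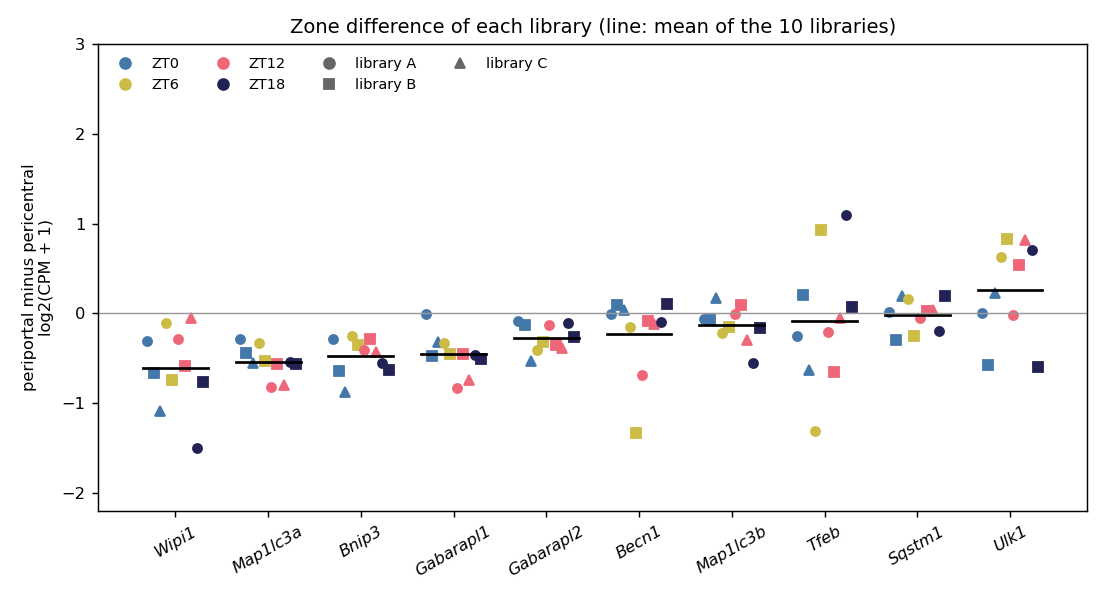
Periportal minus pericentral difference on the log2(CPM + 1) scale (vertical axis) for each of the 10 genes (horizontal axis, ordered by mean). Each point is a library, coloured by time with the marker showing the letter, and the black line is the mean of the 10 libraries. All points of Wipi1, Map1lc3a, Bnip3, Gabarapl1 and Gabarapl2 lie below 0, and 7 of 10 points of Ulk1 lie above it.

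Over 8 equal layers of the cell order the shapes differed. Bnip3 declined step by step from 242 ± 104 CPM in layer 1, the most pericentral, to 165 ± 70.0 in layer 8 (SD, n = 10 libraries), and Gabarapl1 from 253 ± 99.7 to 182 ± 76.6, with its lowest mean in layer 7. Map1lc3a fell from 93.2 ± 21.8 CPM in layer 1 to 64.5 ± 16.6 in layer 3 and lay between 51.7 and 65.1 beyond it. Gabarapl2 was higher in layer 1, at 141 ± 21.7 CPM, than in layers 2 to 8, where the means were 95.5 to 107. Ulk1 measured 31.9 ± 14.0 and 32.5 ± 12.9 CPM in layers 1 and 2 and 41.8 to 46.9 in layers 3 to 8. These layer means are a description, and the SD over libraries of different times was wide beside the steps.

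**Figure D4:**
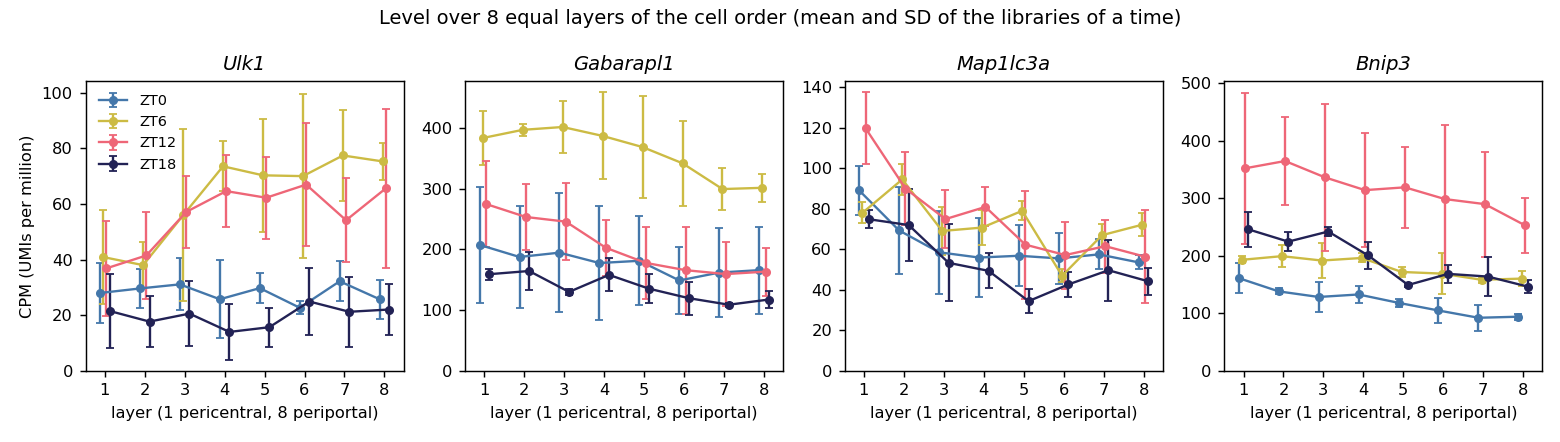
Level in CPM (vertical axis, linear, from 0) of Ulk1, Gabarapl1, Map1lc3a and Bnip3 over 8 equal layers of the cell order (horizontal axis, 1 pericentral to 8 periportal). Lines are times of day, points the mean and bars the SD of the libraries of a time (n = 3, 2, 3 and 2). Gabarapl1 at ZT6 lies above the other times in every layer, and Ulk1 at ZT6 and ZT12 separates from ZT0 and ZT18 toward the periportal side.

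Other measures moved with the zones. Mitochondrial UMIs made up 12.2% to 23.2% of the pericentral and 13.8% to 25.7% of the periportal zone and were higher in the periportal zone of every library. Leaving out mitochondrial, haemoglobin and Mup entries kept the same 5 genes called. Cholangiocyte markers summed to 4.70 to 31.0 CPM pericentrally and 42.2 to 102 CPM periportally, almost wholly Sox9 and Tstd1, while Krt7, Krt19, Epcam and Cldn7 had 2 to 5 UMIs each over all libraries; neutrophil markers summed to at most 23.2 CPM pericentrally and 1.53 CPM periportally. The part of these cells was not tested. With library size alone the median of all genes moved by -0.10 (log2) and 27.8% of called genes were periportal against 48.3%. Under that scaling Wipi1, Map1lc3a, Gabarapl1 and Bnip3 remained called pericentral, Gabarapl2 joined them and Ulk1 was lost. Without both ZT18 libraries, the same 5 genes were called, where 21.8% of all genes were.

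Whether the wave itself differed between the zones was tested with the products of zone and wave. No gene of the 10 was called by edgeR's quasi-likelihood test (Benjamini-Hochberg adjusted), where 0.0337% of all genes were, and DESeq2 called 0 of the 10. By edgeR 1 of the 10, Ulk1, had an unadjusted p under 0.05 (edgeR adjusted p = 0.626). Of all 8907 genes tested 541 had one. Its zone difference on the log2(CPM + 1) scale was 0.01, -0.57 and 0.22 in the ZT0 libraries, 0.62 and 0.83 at ZT6, -0.02, 0.54 and 0.82 at ZT12, and 0.71 and -0.60 at ZT18. Both ZT6 libraries were on the periportal side, and each other time had libraries on both sides. At ZT6 the pericentral level of Ulk1 was 44.7 ± 14.3 CPM and the periportal level 73.4 ± 16.3 CPM (SD, n = 2), against 21.1 ± 5.29 and 22.5 ± 9.18 CPM at ZT18. Bnip3 was at 146 ± 14.6 and 95.6 ± 10.2 CPM at ZT0, and at 356 ± 108 and 273 ± 75.9 at ZT12 (SD, n = 3), so its level at ZT12 exceeded that at ZT0 in both zones.

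The genes around these 10 were examined through 6 lists of 101 other autophagy, lysosome and control genes, of which 100 had a row. The rhythm test of edgeR called 4 of 97 tested, against 5.14% of all genes, and DESeq2 called 7. The zone test called 25 of 98, 14 periportal and 11 pericentral, against 24.6%, and DESeq2 called 20. The shares of all genes are those of edgeR, here and for each list below. Those of DESeq2 are not given, so its counts cannot be judged against a share. The median amplitude of the lists was 0.24 (log2). By edgeR and by DESeq2 0 of 98 had a zone-dependent wave, with 2 at an unadjusted p under 0.05 by edgeR. Of all genes edgeR called 0.0337%, and 541 of 8907 had such an unadjusted p.

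In the list of initiation genes, Atg101, a partner of the Ulk1 kinase, was the only one of 9 called rhythmic, with means of 57.9 ± 11.2 and 49.7 ± 2.43 CPM at ZT0 and ZT6 and of 32.0 ± 1.04 and 22.2 ± 0.571 CPM at ZT12 and ZT18 (SD; amplitude 0.73 with the peak at ZT 3.09; edgeR adjusted p = 0.0083). From ZT0 to ZT12 Atg101 fell by 0.99 ± 0.18 (log2, SE; edgeR adjusted p = 0.0064), while Ulk1 rose. For the rhythm, 1 of the 9 is 11.1%, against 5.14% of all genes. By zone 3 of the 9 were called, 33.3% against 24.6% of all genes. Ulk2, the second kinase of the pair, was pericentral in 10 of 10 libraries (log2 difference -0.42 ± 0.10, SE). Atg2a, a lipid transfer protein, and Vmp1, a membrane protein of the endoplasmic reticulum, were periportal (0.45 and 0.23). Ulk1 and Ulk2 had zone differences of opposite sign.

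Of 11 genes of the lipid kinase complexes or of proteins that bind their phosphoinositide, such as Wipi2, 0 were rhythmic by edgeR or DESeq2. Of all genes edgeR called 5.14% rhythmic. By edgeR 1 of the 11 had an unadjusted p under 0.05, where 1816 of the 8908 genes tested did. By zone 1 of the 11 was called, 9.09% against 24.6% of all genes by edgeR. It was Nrbf2, a subunit of the Becn1 complex, at -0.38 ± 0.12 (log2, SE). DESeq2 called 0 of the 11 by zone. The next list held 12 genes of the joining of the LC3 family to lipid, with the family member Gabarap among them. In it 0 were called in any of the tests of time or zone by edgeR or DESeq2. Of all genes edgeR called 5.14% rhythmic and 24.6% by zone. By edgeR 2 had an unadjusted p under 0.05 for the rhythm and 3, Gabarap included, for the zone. Of all genes 1816 of 8908 and 3046 of 8907 had one. Among 14 other receptors tested 0 were rhythmic by edgeR or DESeq2 (1 at an unadjusted p under 0.05 by edgeR). With 5.14% of all genes called rhythmic, 0 of 11, 12 or 14 is not read as a result about these lists. By zone 3 were called, 21.4% against 24.6% of all genes, and all 3 were pericentral. They were Stbd1, a glycogen-binding receptor (-0.38 ± 0.09), Tex264, a receptor for the endoplasmic reticulum (-0.31 ± 0.08), and Fkbp8, a mitochondrial receptor (-0.22 ± 0.07, log2, SE).

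Of the 29 lysosomal genes tested 14 (48.3%) were zonated by edgeR, 11 periportal and 3 pericentral, and DESeq2 called 11. Of all genes 24.6% were called by edgeR, 11.9% periportal and 12.7% pericentral. Ctsb and Ctsz, both cathepsins, and Lamp1, a membrane glycoprotein, were periportal in 10 of 10 libraries, with log2 differences of 0.58 ± 0.06, 0.55 ± 0.09 and 0.54 ± 0.06 (SE). Lamp1 averaged 400 ± 39.0 CPM pericentrally and 546 ± 46.6 CPM periportally (SD, n = 10). These 3 genes had the opposite sign to Map1lc3a, Gabarapl1, Wipi1 and Bnip3. The 3 pericentral genes were Atp6v0d1 (-0.42 ± 0.09) and Atp6v1h (-0.35 ± 0.10), subunits of the proton pump, and Hexa (-0.42 ± 0.13), a hexosaminidase subunit (log2, SE). Of the 28 lysosomal genes tested for time 0 were rhythmic by edgeR, with 2 at an unadjusted p under 0.05, and 1 was by DESeq2. Of all genes edgeR called 5.14% rhythmic, and 1816 of 8908 had an unadjusted p under 0.05.

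In the list of nutrient and transcription control, 3 of 23 genes were rhythmic (5 by DESeq2) and 4 were zonated (3 by DESeq2). By edgeR these are 13.0% and 17.4%, against 5.14% and 24.6% of all genes. Foxo1 and Foxo3, transcription factors held out of the nucleus by insulin signalling, had amplitudes of 0.64 and 0.50 on the log2 scale (edgeR adjusted p = 0.0256 and 0.0259), and their waves peaked at ZT 11.69 and ZT 11.21. The third was Flcn, folliculin, an upstream regulator of Tfeb, with an amplitude of 0.86 and a mean of 11.4 CPM (edgeR adjusted p = 0.0361). The mean level of Foxo1 was 77.0 ± 17.9 CPM at ZT12 (SD), against 28.3 ± 3.23 at ZT0, 32.1 ± 2.27 at ZT6 and 28.2 ± 1.24 at ZT18. Cebpb, Ppara and Rheb were pericentral (log2 differences -0.72 ± 0.07, -0.44 ± 0.12 and -0.29 ± 0.08, SE) and Deptor, an inhibitor of mTOR, was periportal (0.18 ± 0.06).

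**Figure D5:**
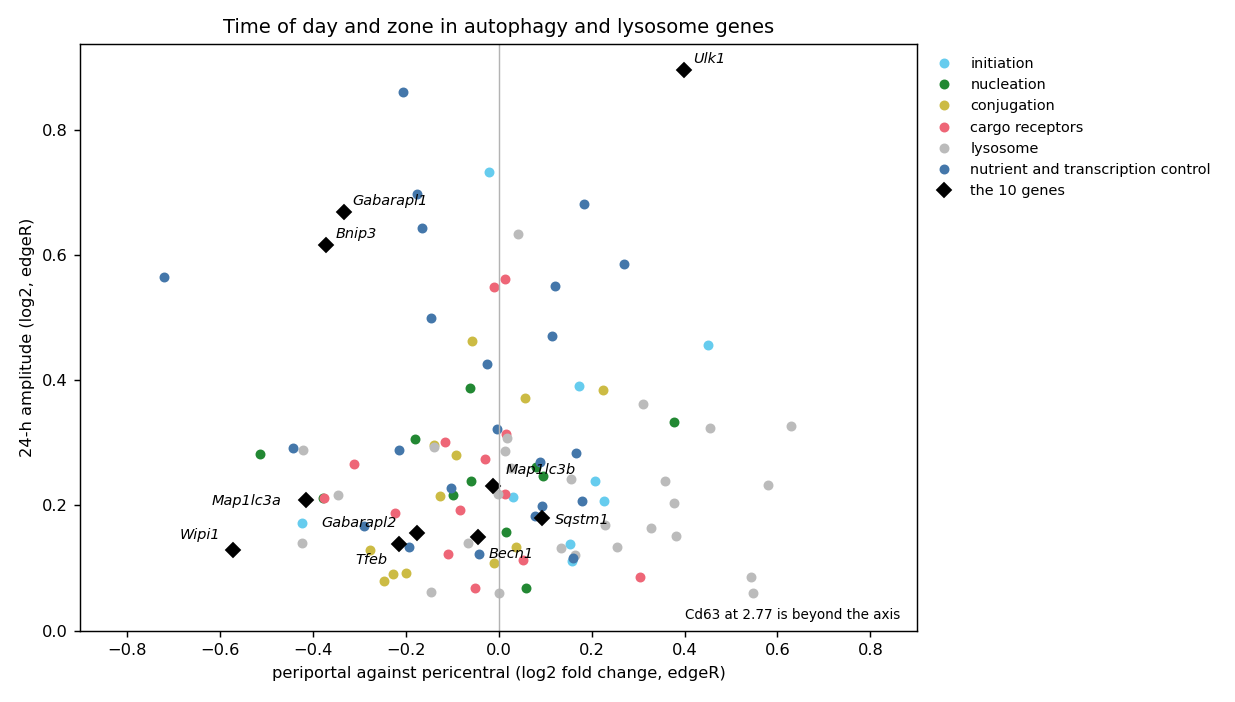
Amplitude of the 24-h wave (vertical axis, log2) against the periportal minus pericentral log2 fold change (horizontal axis), both from edgeR, for the 10 genes (black diamonds, named) and the 6 lists (coloured points). Ulk1 is high and to the right at 0.89 and 0.40, Gabarapl1 and Bnip3 are high and to the left at 0.67 and -0.33 and at 0.62 and -0.37, and Ctsb, Ctsz and Lamp1 lie low on the right; Cd63, a lysosomal gene at 4.30 CPM, lies beyond the axis at 2.77.

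Genes with a like pattern were sought by Pearson's correlation over 12 means (4 times by 3 zones, log2(CPM + 1)) among 4317 genes. Closest to Ulk1 were Aamdc (r = 0.953), Scamp1 (r = 0.945) and the metallothionein Mt1 (r = 0.943), and closest to Bnip3 were Pcmtd1 (r = 0.961), Por (r = 0.956), which encodes cytochrome P450 reductase, and Usp2 (r = 0.948). Closest to Gabarapl1 were Zhx3 (r = 0.978), Uqcc3 (r = 0.973) and zfos1 (r = 0.954), and to Map1lc3a Ctso (r = 0.970), Zbtb44 (r = 0.944) and 1810058I24Rik (r = 0.943). The closest gene of each, Aamdc, Pcmtd1, Zhx3 and Ctso, was called neither rhythmic nor zonated by edgeR. The 12 means share libraries and depth, the best of many candidates are named, and no test of likeness was made.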

How the data were processed

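Counts of UMIs per gene and cell were deposited by the authors for 10 libraries, with cells as numbered columns, so barcodes shared between libraries could not be counted. Cell Ranger and the builds mm10 and hg19 are named in the submitters' processing notes, without a role. The deposited values are integers whose sums vary from cell to cell and were used as raw counts. All 18378 cells passed a minimum of 1000 UMIs and a maximum mitochondrial share of 35%; doublets were not removed. Groups came from the sample titles. The members and gene lists were chosen with earlier results of these data known, and the marker lists too; named list genes were up to 4 per list and test, called and of at least 20 CPM, by size of change; 1 gene so chosen is not reported here.

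UMIs were summed per library, or per zone, and tested with edgeR 4.0.16 (glmQLFit, glmQLFTest, R 4.3.3) after TMM scaling, on genes averaging 3 CPM or more, with Benjamini-Hochberg adjustment over all genes and a threshold of 0.05. The wave was a 2-df test of cosine and sine with a period of 24 h. SEs were obtained as log2 fold change over root F. Zones are the outer parts of each library's cells, split in 3 after ordering by the mean z-score of 8 periportal minus 8 pericentral landmark genes, with the library as a block. Lone libraries left by omitting another were assumed to vary like the other groups. Letters pair ZT0 with ZT12: deviations of same-lettered libraries correlated with r = 0.238, 0.416 and 0.465, and these pairs share an index column in the labels. DESeq2 1.42.0 was an alternative. Same-time libraries differed beyond sampling noise (chi-square per degree of freedom 5.30 to 63.6). The scripts were tested on simulated data. Depth was 1454623 to 7144803 UMIs per library.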

Additional observations from a re-analysis of the deposited data

How the results depend on the processing

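Of 1208 values of a member in a test under an alternative, 32 lost and 12 gained a call. The called counts moved as follows. Except where a share of all genes is printed, they stand without the share called in the same fit. A fit on fewer libraries can lose calls among all genes, so a lower count is not read as a result about the members. Leaving out 1 library at a time, the members called numbered 1 to 3 for any difference among times, 1 to 2 for ZT12 against ZT0 and 0 to 2 for ZT18 against ZT6, against 2 in each with all libraries. The lowest counts came without ZT6A, ZT18A or ZT18B for any difference among times, where 1 member, Ulk1, was called, and without ZT6A or ZT18B for ZT18 against ZT6. Using the ZT0 and ZT12 libraries alone left 1 member, Bnip3, for that contrast. With the index column as a block in these same libraries, Ulk1 and Bnip3 both remained called. Between ZT18 and ZT6, 1 member, Ulk1, remained called with library size alone, with genes of at least 20 CPM and without the 5% of cells with the most UMIs. Without the library as a replicate block, 1 member was called by zone, and 7.20% of all genes.

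With the letter as a replicate block, the rhythm and any-time tests called 3 members each, adding Gabarapl1, and 8.41% and 11.1% of all genes; the block changed no other call. The rhythm test called 2 or 3 members under its other alternatives, the zone test 4 to 6, and the zone-by-wave test 0. The share of all genes called was not set beside these counts either. The zone fit without both ZT18 libraries was chosen after seeing the data. Each cause was not tested. Depth limits Tfeb most, and the contrast of ZT18 and ZT6 rests on 2 libraries each.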
